A study of Homo sapiens with 2 samples.

Results

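Interferon-induced antiviral effector genes are the genes whose products act directly against viruses once interferon has been sensed. The 40 genes described here were taken by name, and every probe set whose platform symbol is one of them was used. The list was chosen with earlier results of these data known. All 40 were found, with 72 probe sets, among 19775 genes with a probe set of their own. Their expression was compared between 2 lines made from OECM1, a long-established line of head and neck cancer cells grown in RPMI with serum. The control line was transfected with the pmR-mCherry empty vector, which carries a red fluorescent protein. The other line was stably transfected with pmCherry-let7i, which expresses the microRNA let-7i from an mCherry vector. Whether each line is a clone or a pool is not given in the sources used here. There was 1 array for each line. The spread between cultures is therefore unknown, and no test was made.

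Interferons bind receptors on the cell surface and, through JAK kinases, activate a transcription factor that contains STAT2 and IRF9. That factor binds the interferon-stimulated response element (ISRE) in the promoters of its target genes. The products cover each step of an infection: IFITM proteins hinder entry, MX proteins trap viral particles, IFIT and OAS proteins recognise viral RNA, and BST2 tethers budding virions. Epithelial and carcinoma cells can express a part of this programme without added interferon.

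The microRNA is shown because the vector of the let-7i line is described as expressing it. The values used here do not measure mature let-7i, so they give no check of the labels. Capitals mark the seed, bases 2 to 8, which pairs with target transcripts (RefSeq, GRCh38.p14, chr12:62603691-62603712, plus strand).
hsa-let-7i-5p: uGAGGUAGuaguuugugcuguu

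Promoter stretches are shown for some of the members that were at least 2-fold lower with let-7i. For comparison, those of IFITM3, PARP12 and BST2, which were not lower, are shown too. Of the other members at least 2-fold lower, HERC5 and IFI44L also hold the letters but are not shown. OASL had no promoter stretch among the sequences searched. Capitals mark the letters searched for as the ISRE core, GAAA and again GAAA with any 2 bases between, or the same on the other strand (TTTC and again TTTC), and overlapping matches are run together. All stretches lie before the transcript start and read in the direction of the gene (RefSeq, GRCh38.p14).
IFIT1 (chr10:89392482-89392554, plus strand): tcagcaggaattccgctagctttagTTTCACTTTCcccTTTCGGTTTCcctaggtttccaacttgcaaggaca
IFIT3 (chr10:89327816-89327909, plus strand): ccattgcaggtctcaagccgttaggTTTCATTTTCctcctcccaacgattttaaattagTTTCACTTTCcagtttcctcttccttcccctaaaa
ISG15 (chr1:1013359-1013424, plus strand): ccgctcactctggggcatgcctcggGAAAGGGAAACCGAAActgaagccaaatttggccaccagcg
IFI27 (chr14:94110603-94110675, plus strand): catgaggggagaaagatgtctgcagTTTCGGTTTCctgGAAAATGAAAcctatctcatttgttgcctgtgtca
IFI44 (chr1:78649746-78649788, plus strand): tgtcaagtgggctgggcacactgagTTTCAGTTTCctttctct
RSAD2 (chr2:6877607-6877666, plus strand): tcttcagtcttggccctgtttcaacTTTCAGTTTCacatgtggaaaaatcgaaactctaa
IFITM3 (chr11:320861-320937, minus strand): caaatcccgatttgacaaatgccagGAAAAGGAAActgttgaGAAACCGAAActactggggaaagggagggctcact
PARP12 (chr7:140062952-140062986, minus strand): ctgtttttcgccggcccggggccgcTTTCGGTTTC
BST2 (chr19:17405720-17405785, minus strand): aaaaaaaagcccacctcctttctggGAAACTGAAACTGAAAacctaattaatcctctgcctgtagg

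Most of the antiviral effector genes had a lower signal in the let-7i line. A gene was given a ratio where its brightest probe set reached a floor on at least 1 array, the floor being the median signal (88.0 in the control, 79.5 in the let-7i line). Of the 40 members 36 did so, 34 of them on both arrays, and 28 were lower and 8 higher with let-7i. Among all 12284 genes above the floor, 49.8% were lower. At least 2-fold lower were 9 members (IFIT1, IFIT3, OASL, ISG15, HERC5, IFI27, IFI44, IFI44L and RSAD2), or 25% of the 36, where 1.38% of all genes were. At 1.5-fold, 18 of 36 were lower, against 5.93% of all genes. IFI16 was the single member at least 2-fold higher, where 1.06% of all genes were. BST2 joined it at 1.5-fold, where 4.18% of all genes were. IFI27 was the member past 3-fold lower (0.195% of all genes) and IFI16 the member past 3-fold higher (0.277%). The 3-fold count on the lower side turned with the processing: with a floor raised to the 65th percentile IFI27 had a bound of -1.38 on the log2 scale and was not past it. IFI44, at 2.97-fold, was past it with lowess centring (-1.59), with the mean of probe sets (-1.81) and without shared probe sets (-2.08), and IFI44L with a floor at the 25th percentile (-2.06) or none (-2.05). The median log2 ratio, let-7i over empty vector, was -0.58 over the members, a 1.49-fold lower level, and -0.009 over all genes. These shares describe 2 arrays and a list chosen with earlier results of these data known, so they are no independent support. A difference between cultures that has nothing to do with let-7i cannot be told apart from one that has.

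**Figure D1:**
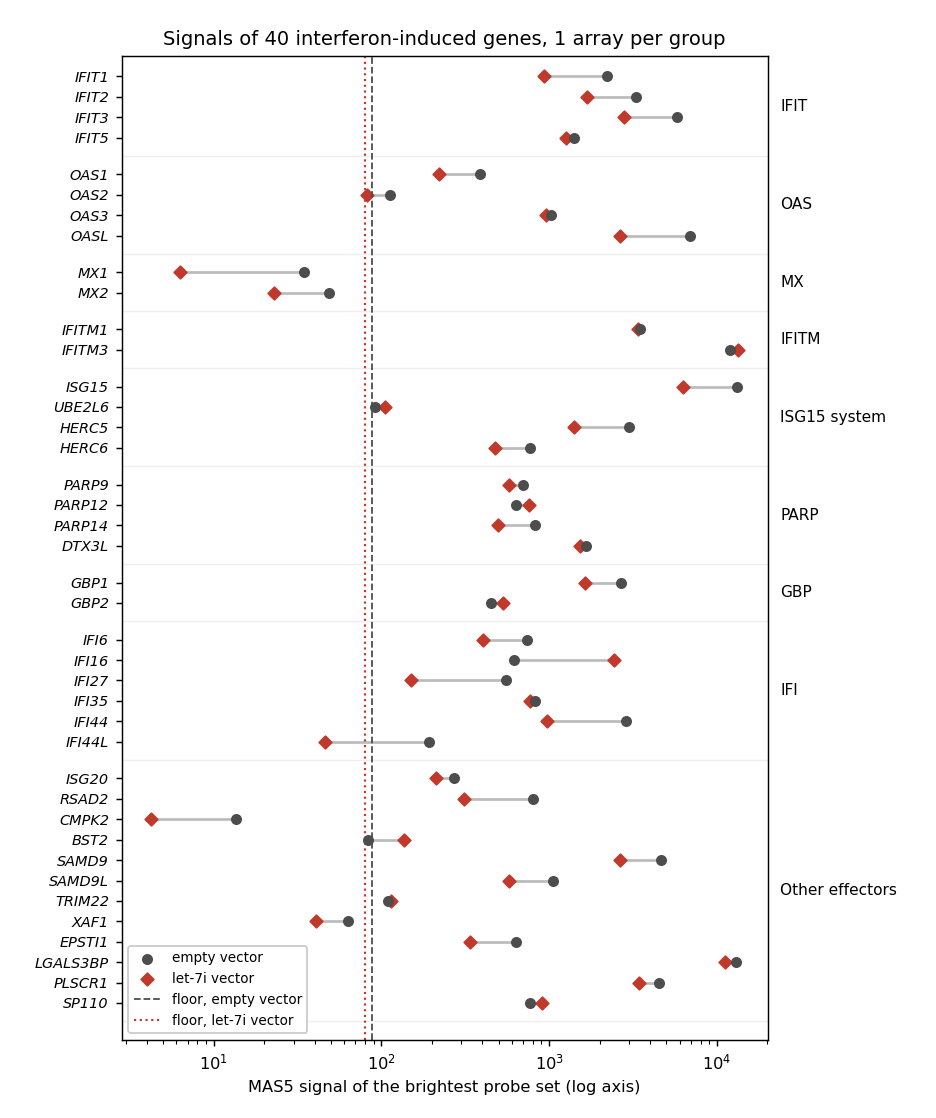
MAS5 signal (log axis) of the brightest probe set of each of the 40 genes, grouped by family, on the empty vector array (grey circles) and the let-7i array (red diamonds), with the floor of each array as a vertical line. The red point lies left of the grey one in 32 of 40 genes, 4 of which (MX1, MX2, CMPK2 and XAF1) lie below both floors, and IFI16 shows the widest step to the right.

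The error that can be given is the disagreement between probe sets of 1 gene, which covers probe noise and no variation between cultures. Over 5807 genes with a pair of measured probe sets, the SD of 1 probe set was 0.25 on the log2 scale, and 0.26 over the 16 members with such a pair. Of the 18 members with several probe sets above the floor on at least 1 array, 17 had ratios of the same sign in all of them, with 1 dim probe set of OAS2 whose bound does not fix a direction. The exception was OAS3. In all, 61 of the 72 probe sets were above the floor on at least 1 array, 44 lower and 16 higher. Over the 34 members measured on both arrays the log2 ratio had little relation to the mean log2 signal (Pearson r of -0.08, Spearman rho of -0.14, across genes that share the same arrays).

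**Figure D2:**
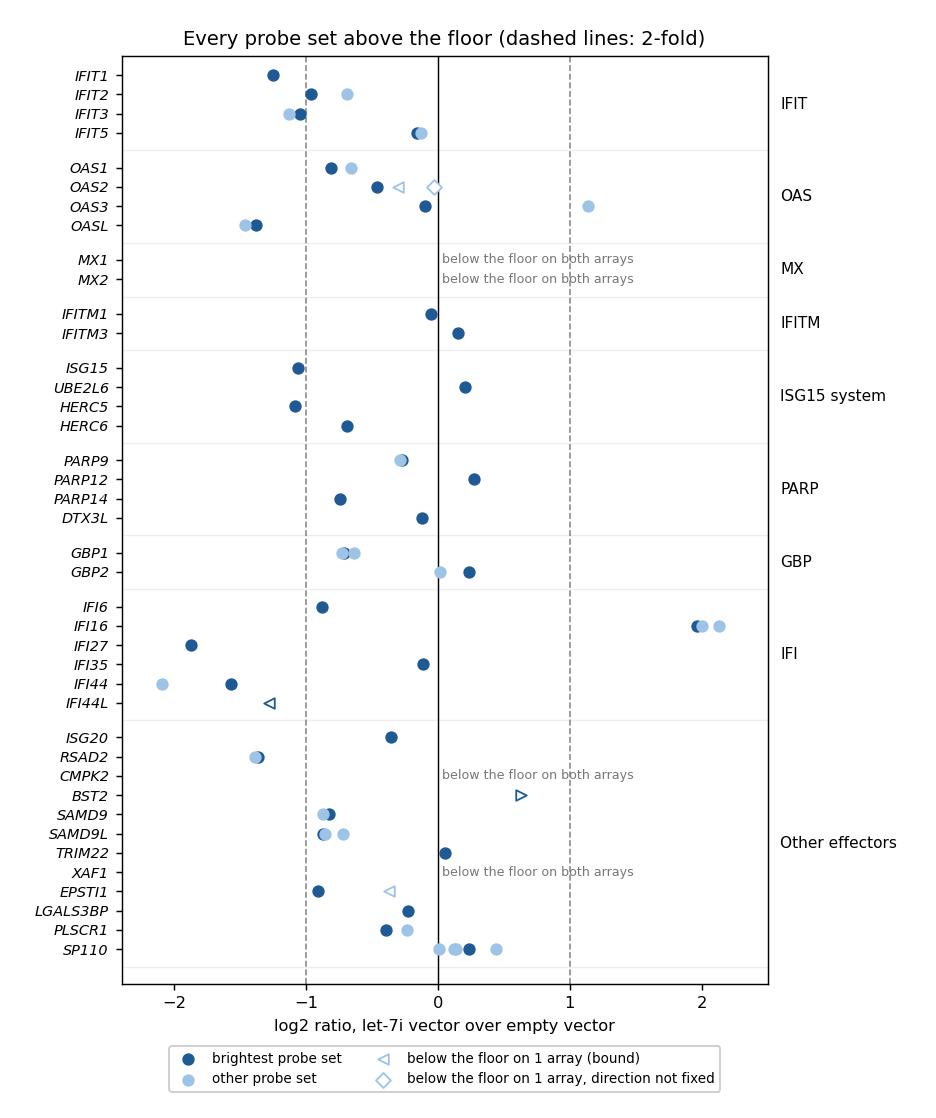
Log2 ratio of each probe set above the floor, by gene and family, with dashed lines at 2-fold. Dark circles are the brightest probe set of a gene, light circles its others, and open triangles give bounds. The IFIT1 to IFIT3, SAMD9 and RSAD2 points lie to the left, the 3 IFI16 points lie between 1.96 and 2.13, and the OAS3 points lie on opposite sides of 0.

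The IFIT proteins bind viral RNA that lacks the marks of host messages and block its translation. IFIT1, which binds the capped end of such RNA, had its signal at 2205 (empty vector) and 928 (let-7i), 2.38-fold lower (log2 ratio -1.25). IFIT3, which stabilises IFIT1 in a complex, gave 5779.9 and 2806 in its brightest probe set, 2.06-fold lower (log2 ratio -1.05), and 2767 and 1269 in its other one (-1.13). Both genes were past 2-fold, IFIT3 only just. IFIT2, their partner, gave 3289.6 and 1689, 1.95-fold lower and just short of that threshold (log2 ratio -0.97), and -0.69 in its other probe set. IFIT5 stood apart from these 3 genes. It gave 1404 and 1262, and its probe sets had log2 ratios of -0.16 and -0.13, less than the SD of 1 probe set. The family had a median log2 ratio of -1.01, with 4 of 4 members lower and 2 at least 2-fold lower. The 4 genes lie side by side on chromosome 10, in the order IFIT2, IFIT3, IFIT1 and IFIT5, with 1 other coding gene among them.

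The oligoadenylate synthetases make a short nucleotide signal on double-stranded RNA that switches on an RNA-cleaving enzyme. OASL, a relative without that activity which strengthens RNA sensing, gave 6869.6 and 2639, 2.61-fold lower (log2 ratio -1.38), and 6170.0 and 2238 in its other probe set (-1.47). OAS1 gave 387 and 222, 1.75-fold lower (log2 ratio -0.81), with -0.66 in its other probe set. OASL and OAS1 were therefore lower in each of their probe sets. OAS2 had 113 and 82.4 in its brightest probe set, close to the floor, and a log2 ratio of -0.46. OAS3 gave no single answer: its brightest probe set had 1024 and 959, a log2 ratio of -0.10, and its dimmer one had 110.4 and 244, a log2 ratio of 1.14. Its direction turned with the choice of probe set, and the mean over both was a log2 ratio of 0.54. OAS1, OAS3 and OAS2 lie next to each other on chromosome 12. The family median was -0.63 (4 of 4 lower by the brightest probe set, 1 at least 2-fold).

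MX1 and MX2 encode dynamin-like GTPases that assemble around viral components. Neither reached the floor on either array. MX1 gave 34.7 (empty vector) and 6.33 (let-7i), and MX2 gave 48.6 and 23.0. No fold is given for them, and the family has no median.

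The IFITM proteins sit in membranes and hinder the fusion of virus and cell. Here they differed by less than the SD of 1 probe set. IFITM1 had 3497 and 3373, a log2 ratio of -0.06, and IFITM3 had 12024 and 13384, a log2 ratio of 0.15. The probe sets of both can match several transcripts, and IFITM genes are near-identical, so their signals may be shared with each other. One further probe set, annotated to both IFITM1 and IFITM2, was not used.

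ISG15 is a ubiquitin-like modifier that is attached to new proteins, including viral ones. It gave 13143 and 6302, 2.09-fold lower (log2 ratio -1.06), in a probe set that can match several transcripts. HERC5, the main ligase that attaches it, gave 2976 and 1404, 2.12-fold lower (-1.09). HERC6, a related ligase that lies beside HERC5 on chromosome 4, gave 767 and 477, 1.61-fold lower. UBE2L6, the conjugating enzyme between them, had 91.1 and 105.2, close to the floor, and a log2 ratio of 0.20. The modifier and both ligases were lower, the conjugating enzyme was not, and the median of the 4 was -0.88.

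PARP9, PARP12 and PARP14 belong to the ADP-ribosyltransferases, and DTX3L is a ubiquitin ligase that works as a pair with PARP9. PARP14 gave 824 and 494, 1.67-fold lower. PARP9 gave 695 and 577, its probe sets lying close together at -0.27 and -0.29 on the log2 scale. DTX3L had 1663.5 and 1529.9, a log2 ratio of -0.12. PARP12 had 630.5 and 762, a log2 ratio of 0.27. None of the 4 was past 2-fold, the family median was -0.20, and the differences other than that of PARP14 are about as large as the SD of 1 probe set or smaller. PARP9, DTX3L and PARP14 lie together on chromosome 3.

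GBP1 and GBP2 are large GTPases that coat membranes around pathogens and respond strongly to interferon gamma. GBP1 gave 2679 and 1642, 1.64-fold lower, and its 3 probe sets above the floor gave log2 ratios between -0.73 and -0.64. GBP2 gave 451 and 532, a log2 ratio of 0.23, and its other probe set gave 0.02. These neighbours on chromosome 1 thus lay on different sides of 0, the difference in GBP2 being under the SD of 1 probe set.

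The genes named IFI are united by their induction and not by sequence, and they held the most extreme ratios at both ends. IFI27, a small protein of mitochondrial and nuclear membranes, gave 552 and 151, 3.66-fold lower (log2 ratio -1.87), the 14th lowest log2 ratio of all 12284 genes. IFI44, a cytoplasmic protein, gave 2882 and 972, 2.97-fold lower (log2 ratio -1.57), and 358 and 84.3 in its other probe set (-2.09). IFI44L, its paralogue and neighbour on chromosome 1, gave 193 (empty vector) and 45.8 (let-7i). The latter is below the floor, so its level was at least 2.43-fold lower. IFI6, a mitochondrial protein that counters cell death, gave 739 and 403, 1.84-fold lower. IFI35 had 827 and 767, a log2 ratio of -0.11. The median over the 6 genes was -1.08.

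IFI16 went the other way. It encodes a DNA sensor of the nucleus and cytoplasm that is also linked to growth arrest. Its brightest probe set gave 621 (empty vector) and 2426 (let-7i), 3.89-fold higher (log2 ratio 1.96). Its other probe sets gave 488 and 2146 (2.13), and 273 and 1099 (2.00), so each of them was past 2-fold. All 3 can match several transcripts, and none is left once such probe sets are dropped. Without IFI16 the median log2 ratio of the members was -0.69.

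Among the single effectors, RSAD2, or viperin, makes a nucleotide that ends viral RNA chains. It gave 798 and 311, 2.58-fold lower (log2 ratio -1.36), and 658 and 251 in its other probe set (-1.39). CMPK2, its neighbour on chromosome 2, which supplies the nucleotide, was below the floor on both arrays (13.5 and 4.24). XAF1, a gene that promotes cell death, was below it too (63.6 and 40.7). SAMD9 and SAMD9L, neighbours on chromosome 7 that restrict poxviruses, had 4658 and 2637, and 1057 and 578. Their log2 ratios ran from -0.87 to -0.82 in 2 probe sets and from -0.88 to -0.72 in 3, a closely matched pair.

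EPSTI1, first known as a gene of the epithelial and stromal response, gave 633 and 337, 1.88-fold lower, and its dimmer probe set a bound of -0.37 on the log2 scale. PLSCR1, a phospholipid scramblase, gave 4507 and 3445, and its probe sets had ratios of -0.39 and -0.23. These genes were lower in each probe set above the floor. ISG20, an exonuclease that degrades viral RNA, had a log2 ratio of -0.36, and LGALS3BP, a secreted glycoprotein, of -0.23. BST2, or tetherin, gave 83.3 (empty vector), below the floor, and 136.6 (let-7i), at least 1.55-fold higher. TRIM22, a ubiquitin ligase, had 110.1 and 114.3, a log2 ratio of 0.05. SP110, a nuclear body protein, had 5 probe sets with log2 ratios from 0.01 to 0.44. These 12 effectors had a median log2 ratio of -0.38 over the 10 with a ratio, with 7 lower and 3 higher.

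What members share was looked for in their promoters, in windows from 250 bases before to 50 after each annotated transcript start. Of the 40 members 34 had a window, 12 of them for several starts. The ISRE letters, on either strand, stood in at least 1 window of 25 of these 34 members (73.5%), against 4.38% of the 27305 genes of the table. Among the 15384 genes of the table with a probe set of their own, the share was 3.98%. The members were chosen as interferon-induced genes, so a high share follows from that choice. The letters TTCNNNGAA of the gamma-activated site, which read alike on both strands, stood in 10 members (29.4%) and 9.38% of all genes. In 4 members a match of one motif overlaps one of the other, in the windows plotted here. Of the 24 members with a ratio and the ISRE letters, 21 were lower, with 8 past 2-fold and a median of -0.73. Of the 7 with a ratio and no such letters in these windows, 4 were lower and none at least 2-fold, with a median of -0.11, and IFI16 was one of them. Among all genes above the floor, 49.8% were lower and 1.38% at least 2-fold lower. The ratios of other genes with the letters were not examined, and the members were chosen with earlier results known. The split therefore only describes these members. IFITM3, PARP12 and BST2, which were not lower, hold the letters as IFIT1 and ISG15 do. A match describes letters, not binding.

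**Figure D3:**
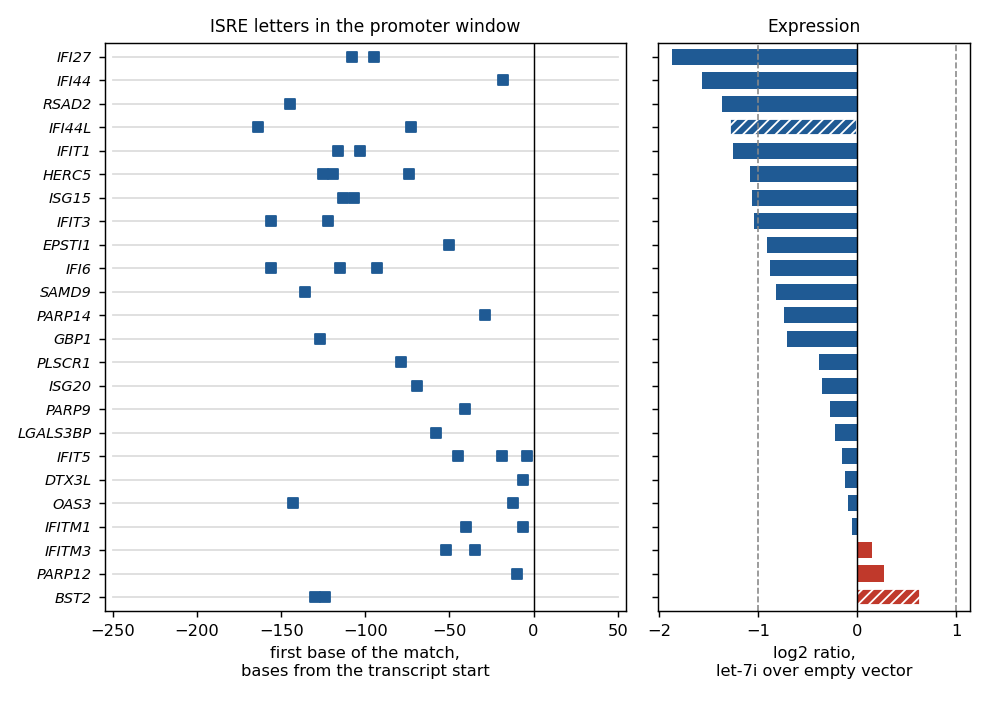
The 24 members with a ratio and ISRE letters in a promoter window, ordered by log2 ratio. The left panel gives the first base of each match in bases from the transcript start (for genes with several starts, the first listed start that holds the letters), and the right panel the log2 ratio, with dashed lines at 2-fold and hatched bars for bounds. Matches stand beside ratios from -1.87 (IFI27) to 0.63 (BST2).

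Position along the chromosome was the other shared feature. The 40 members include 10 groups of neighbours that hold 24 of them. HERC6 and HERC5, SAMD9 and SAMD9L, and IFI44L and IFI44 were lower together, while IFIT5 (-0.16) lay closer to 0 than IFIT1, IFIT2 and IFIT3, and GBP2 (0.23) on the other side of 0 from GBP1 (-0.71). This is a description, since neighbours were not chosen apart from the families.

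The rest of the pathway was set beside the effectors. Most interferon genes did not reach the floor. Of 18 interferon genes with a probe set, 3 reached it on either array. These were IFNA10, IFNA17 and IFNL1, named after their values were seen, and probe sets of the alpha interferons may match several of these near-identical genes. IFNA17 had 219 and 171, IFNA10 had 107.9 and 30.2, and IFNL1 had 134 and 62.5, and IFNB1 was far below the floor (3.14 and 4.95). Of 21 receptor and signalling genes, all above the floor, 15 were lower and 6 higher, none was past 2-fold, and the median log2 ratio was -0.08. The log2 ratios of these genes ran from -0.73 (a bound) to 0.97, the latter just short of 2-fold higher. Among all genes above the floor, 49.8% were lower, 1.38% at least 2-fold lower and 1.06% at least 2-fold higher. IRF9, the DNA-binding part of the ISRE factor, had 435 and 338, a log2 ratio of -0.37, and IRF7, which drives interferon genes, had 270.5 and 258, a log2 ratio of -0.07. STAT2 was not analysed here.

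Of 12 sensors of foreign nucleic acid above the floor, 10 were lower, where 49.8% of all genes were. At least 2-fold lower were 2 of the 12, where 1.38% of all genes were, and the median was -0.32. DDX60, a helicase that assists RNA sensing, gave 4925 and 1336, 3.70-fold lower, in its single probe set, which can match several transcripts, so that it has no value once such probe sets are dropped. TLR3, the endosomal receptor of double-stranded RNA, gave 613 and 214, 2.87-fold lower in its brightest probe set but -0.42 in its other, and the mean of both was under 2-fold (-0.95).

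Of 42 further interferon-induced genes above the floor, 25 were lower, 16 higher and 1 of no fixed direction, with a median of -0.12. The share that was lower was 59.5%, near the 49.8% of all genes. At least 2-fold lower were 4 of them (9.52%), where 1.38% of all genes were. RTP4, a receptor transporter, had 251 and 71.9, at least 3.16-fold lower, a bound that shrinks to -0.24 on the log2 scale if the floor is raised to the 65th percentile. PLAAT4, a phospholipase, gave 1549 and 533, 2.91-fold lower. TNFSF10, the death ligand TRAIL, gave 888 and 307, 2.90-fold lower, in the brightest of 3 probe sets that ran from -1.80 to -1.54. All of these were lower in each probe set above the floor. APOL6, an apolipoprotein L, gave 1043 and 442, 2.36-fold lower, with 4 probe sets between -1.24 and -0.91. PARP11, named after its values were seen, was the 1 gene at least 2-fold higher (93.4 and 193), where 1.06% of all genes were. That call is lost if the floor is raised to the 65th percentile.

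**Figure D4:**
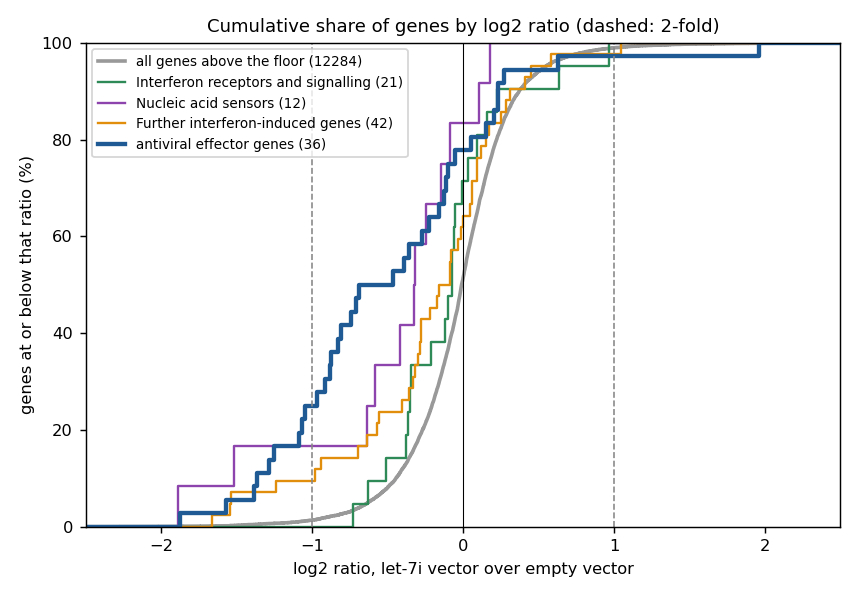
Cumulative share of genes (%) by log2 ratio, let-7i over empty vector, for the 36 antiviral effector genes with a ratio, 3 other interferon lists and all 12284 genes above the floor, with dashed lines at 2-fold. The effector curve lies left of the curve of all genes over most of its length and reaches 25% at 2-fold lower, where all genes reach 1.38%.

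Marker lists were used to look for squamous keratinocyte genes and for signs of other cells. They do not settle the identity of the line, as 4 of the 10 keratinocyte markers with a probe set were below the floor. Of 10 squamous keratinocyte markers with a probe set, 6 were above the floor on both arrays (SFN, DSP, LAMB3, ITGB4, ITGA6 and CDH1). All 10 together had summed signals of 38312 and 38977, of which SFN gave 15939 and 16192. The other 4 were below the floor on both arrays. These were KRT5, a keratin that defines basal keratinocytes (11.9 and 7.88), KRT14 (29.3 and 9.85), DSG3 (58.9 and 29.1) and PKP1 (15.1 and 5.65). TP63 was not analysed here. Of 13 leukocyte markers 4 were above the floor on either array, 3 of these lower and 1 higher with let-7i, and PTPRC, which defines leukocytes, was below it (55.8 and 58.3). The summed signal of all 13 was 829 in the control line and 669 in the let-7i line. Of 5 markers of plasmacytoid dendritic cells, which secrete interferon, 1 was above it and higher with let-7i, and the summed signal of all 5 was 456 and 569.5. Of 12 fibroblast markers 5 were above it, 3 of these higher and 2 lower with let-7i (median log2 ratio 0.26). The summed signal of all 12 was 4879.7 and 3872, most of it from FBLN1 (3695 and 2321), named after its values were seen, and so went the other way from most of the 5. The part of other cells in the lower effector signals was not tested. The signal ratio of 3' to 5' control probe sets of GAPDH, a measure of RNA integrity, was 0.948 (empty vector) and 0.934 (let-7i). For ACTB the same ratio was 1.21 (empty vector) and 1.26 (let-7i). In bulk RNA, fewer cells expressing a gene and less RNA per cell cannot be told apart.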

How the data were processed

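RNA of each line was hybridised as biotinylated cRNA, per the labels. The deposited intensities (linear scale, a value for each probe set) come from MAS5, according to the submitters' processing notes (version and settings not given in the sources used here). Both arrays share a trimmed mean of 500.1 (2% trimmed at each end), so a difference in total RNA per cell would be removed. Mismatch subtraction adds noise to dim signals.

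Genes were named from the platform annotation through Entrez IDs. Of 54675 probe sets, 41097 with 1 symbol were used. The brightest probe set (mean of log2 signals) stood for each gene. The floor was the 50th percentile of each array. A signal below it on 1 array was set to the floor, which gives a bound. Log2 ratios, let-7i over empty vector, were centred on the median over genes above the floor on both arrays (a shift of 0.0036). Calls were by size at 2-fold. Each member was named, with full values for those past 2-fold and at least 1 per family. Of the other interferon lists, up to 4 genes past 2-fold with the largest ratio were named, plus IRF9 and IRF7. The defining markers KRT5 and PTPRC were named too, with all keratinocyte markers that have a probe set. Members and lists were chosen with earlier results of these data known. Settings tried are given in the closing section. The procedure was also run on simulated data with planted folds, a constant level of probe noise and no variation between cultures. Such a run cannot tell how far cultures differ, so it gives no support to the calls. Promoter and miRNA sequences are RefSeq's (GRCh38.p14). Computation used pandas 2.3.3 and NumPy 2.4.6 on Python 3.11.15, lowess from statsmodels 0.14.6, and Matplotlib 3.10.9 for plots.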

Additional observations from a re-analysis of the deposited data

How the results depend on the processing

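With 1 array per group no alternative carries a test, and the number of arrays limits the precision. No paired analysis was possible because each group has 1 array. Of the 36 members with a ratio, 35 kept their direction in each of the 10 alternatives of scaling, floor and probe set that gave them a ratio, 27 of them lower and 8 higher. The exception was OAS3, whose log2 ratio was 0.54 with the mean of its probe sets. The 9 members at least 2-fold lower were so in every one of these alternatives that gave them a ratio. Without probe sets shared between transcripts, 0 members were at least 2-fold higher, because the 3 probe sets of IFI16 are all of that kind and drop out, and ISG15 drops out for the same reason. At a threshold of 1.5-fold, 18 members were lower and 2 higher, and at 3-fold 1 was lower. The median log2 ratio of the members lay between -0.80 (without shared probe sets) and -0.48 (mean of probe sets). The median of -0.80 is over the 26 members left without shared probe sets, 23 lower and 3 higher. It therefore differs in the set of genes as well as in the processing. Dim signal limits MX1, MX2, CMPK2 and XAF1. With no floor 12 members were at least 2-fold lower, MX1, MX2 and CMPK2 being added, where 10.5% of all genes were; with a floor at the 65th percentile 8 were, IFI44L having no ratio.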

Other observations

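Among the 24 members with a ratio and the ISRE letters in a promoter window, the position of the letters differed between genes, a pattern noticed after the values were seen. The match farthest from the transcript start lay at a median of 120.5 bases before it in the 8 members at least 2-fold lower with let-7i (18 to 164) and of 55 bases in the 16 not past 2-fold (6 to 156). The ranges overlap. IFI44 stood at 18 bases among the former, while OAS3 (143), GBP1 (127), IFI6 (156), BST2 (130) and SAMD9 (136) stood far out among the latter. The farthest match can also lie farther out in a gene that has more matches. No test was made. OASL, which was also at least 2-fold lower, is not among these genes.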
